A study of Mus musculus with 8 samples.

Results

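The germ cell energy isozymes and their somatic forms were examined in testes of juvenile mice with and without *Morc2b*. The germ cell forms were *Ldhc*, *Gapdhs*, *Cox6b2*, *Cyct* and *Slc25a31*, and the somatic forms were *Ldha*, *Ldhb*, *Cox6b1*, *Cycs* and *Slc25a4*. These 10 genes were chosen by name, 5 of each kind, out of the 24651 genes counted in the series. *Gapdh*, the somatic counterpart of *Gapdhs*, was followed beside them. The 8 libraries each came from the pair of testes of a male at postnatal day 12, with 4 males labelled wild type and 4 labelled *Morc2b*-/-, all on a mixed strain background. In the knockout allele a PGKNeo cassette takes the place of the coding exon of *Morc2b* in every cell from conception. All knockout mice descend from 1 targeted clone of embryonic stem cells, so the allele and sequence linked to it cannot be told apart. The sample labels and the published study call the controls wild type, whereas the series' own design text calls them *Morc2b*+/-. The labels do not say which samples were littermates.

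Male germ cells replace several enzymes of glycolysis and respiration with forms made from separate genes, most of which are switched on as spermatocytes proceed through meiosis. LDHC takes the place of the LDHA and LDHB subunits of lactate dehydrogenase, which interconverts pyruvate and lactate, and GAPDHS takes the place of glyceraldehyde-3-phosphate dehydrogenase in the sperm tail. In the mitochondria, COX6B2 replaces the COX6B1 subunit of cytochrome c oxidase, and CYCT replaces somatic cytochrome c. SLC25A31 (ANT4) is the germ cell carrier that exchanges ADP for ATP. SLC25A4 (ANT1) is among its somatic counterparts, as is SLC25A5. The developing testis is a mixture in which the most advanced cell type becomes more abundant with each day of the juvenile period.

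*Ldhc*, *Cyct* and *Slc25a31* were the germ cell forms that could be measured, and they differed in how their levels varied, so the sequence before the start site of each is shown. The sequences are the 250 bases before the RefSeq start site in GRCm38.p6, written 5' to 3' on the strand of the gene. RefSeq lists 2 starts for *Ldhc*, and the sequence before the upstream start is shown. *Ldhc* lies on the plus strand (chr7:46861013-46861262), *Cyct* on the minus strand (chr2:76360454-76360703) and *Slc25a31* on the plus strand (chr3:40708621-40708870). Capitals mark matches on either strand to the MYB core TAACNG or to the core of the cyclic AMP response element (CRE), TGACGT, motifs of factor families known to act in meiotic and haploid male germ cells.
Ldhc: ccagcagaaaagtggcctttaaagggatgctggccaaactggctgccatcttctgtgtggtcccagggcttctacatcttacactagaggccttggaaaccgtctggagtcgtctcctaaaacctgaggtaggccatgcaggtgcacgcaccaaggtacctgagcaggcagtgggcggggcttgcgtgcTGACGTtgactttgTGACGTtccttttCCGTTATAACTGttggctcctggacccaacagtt
Cyct: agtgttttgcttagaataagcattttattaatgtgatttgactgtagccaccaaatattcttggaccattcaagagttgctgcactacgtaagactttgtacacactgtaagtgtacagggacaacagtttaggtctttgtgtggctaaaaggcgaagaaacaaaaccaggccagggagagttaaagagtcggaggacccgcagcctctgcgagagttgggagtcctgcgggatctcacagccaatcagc
Slc25a31: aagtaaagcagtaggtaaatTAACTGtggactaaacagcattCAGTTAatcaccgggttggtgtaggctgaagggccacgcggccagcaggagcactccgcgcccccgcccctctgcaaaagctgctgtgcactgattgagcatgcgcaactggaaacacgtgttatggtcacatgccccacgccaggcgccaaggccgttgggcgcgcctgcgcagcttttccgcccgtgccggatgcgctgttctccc

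The *Ldhc* sequence held 2 CRE cores, beginning 61 and 47 bases before the start, and 2 MYB cores, beginning 34 and 28 bases before it and adjoining without overlap. The 250 bases before the other *Ldhc* start (position 46861487) held 1 MYB core, 229 bases before it, and no CRE core. The *Slc25a31* sequence held 2 MYB cores, 230 and 208 bases before its start, and no CRE core. The *Cyct* sequence held neither. A MYB core was found in 19.8% of 32851 RefSeq promoters of the same 250 bases and a CRE core in 6.47% of them. Neither motif was particular to the germ cell forms. The sequence before somatic *Cycs* held 1 MYB core and 3 matches to the CRE core, some of which overlapped, and that of somatic *Cox6b1* held 1 CRE core. Of the 2 starts of somatic *Ldha*, the upstream one had 2 overlapping CRE matches and the other 1 MYB core. The CCAAT box (33.85% of promoters), GC box (32.74%) and E2F core (16.9%) were also searched and are not marked. The *Cyct* sequence held 1 CCAAT box and 1 E2F core, that of *Ldhc* 1 GC box and that of *Slc25a31* 2 GC boxes. The motifs were chosen after the sequences had been seen, and a match is a description of the letters, not evidence of binding.

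Levels are given as CPM, the usual depth-scaled unit of RNA-seq, in which the counts of a gene are divided by the TMM-normalized library size of its sample. Each sample had between 27144796 and 36941755 counts on transcripts. *Morc2b* itself was at 11.7, 16.2, 0.857 and 39.98 CPM in wild type 1 to 4 and at 0.323, 0.270, 3.29 and 0.0687 CPM in *Morc2b*-/- 1 to 4. The genotypes overlapped, because *Morc2b*-/- 3 lay above wild type 3, so *Morc2b* alone does not check the labels of these samples, and each sample name below stands for the library with that label. The log2 fold change of *Morc2b* was -4.09 (SE 1.21, edgeR quasi-likelihood test, unadjusted p = 0.0079, adjusted p = 0.99981). Some libraries stood apart in cell type markers. The summed level of 9 spermatid markers was 151 CPM in wild type 1 and 305 CPM in *Morc2b*-/- 3. It was 18.2 and 34.6 CPM in *Morc2b*-/- 1 and 2, and 2.23 to 3.54 CPM in the remaining samples. *Tnp1*, a transition protein gene of elongating spermatids, was at 52.9 CPM in wild type 1 and 111 CPM in *Morc2b*-/- 3. The study places the first spermatids at a later age than the one sampled, and it saw none in adult *Morc2b*-/- tubules. The source of this RNA was not tested. The summed level of 9 pachytene markers was highest in wild type 4 at 299 CPM and overlapped between genotypes, at 97.2 to 299 CPM in wild type and 94.5 to 121 CPM in *Morc2b*-/-. Of these markers 4 were tested, and *Piwil1* was the 1 whose genotypes did not overlap, beside 1.29% of all genes. It was at 36.2, 46.3, 16.6 and 133 CPM in wild type 1 to 4 and from 14.7 to 15.8 CPM in the *Morc2b*-/- samples. Wild type 3 thus lay only just above them. *H1f6* and *Pou5f2*, with 85 and 84 counts, were too low to be tested. Their highest values were in *Morc2b*-/- samples, at 0.688 CPM in *Morc2b*-/- 4 and 0.659 CPM in *Morc2b*-/- 3. *Tcfl5*, the pachytene marker with the most counts, ranged from 76.7 to 116 CPM in wild type and from 76.1 to 93.3 CPM in *Morc2b*-/-. Wild type 1 also held 249 CPM of 5 epididymal markers, which *Morc2b*-/- 2 held at 13.4 CPM and the other samples at 0.659 CPM or less. The Sertoli cell markers were present at 1379 to 1661 CPM in all samples, and the 5 erythroid markers were listed at 0 throughout. This 0 does not show that erythroid RNA was absent. *Alas2* is listed with 2 transcripts, and whether reads of the globin genes were set aside in counting was not tested.

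In the files, 6 of the 10 genes are represented by 1 transcript each and could be counted. These were *Ldhc*, *Cyct*, *Slc25a31*, *Cox6b1*, *Cycs* and *Slc25a4*, with totals of 4889 to 59035 counts over the 8 samples. The other genes are listed with several transcripts, and reads that overlapped more than 1 listed transcript were set aside and entered no count. *Ldhb* had 0 counts on 3 transcripts, *Gapdhs* 2 counts on 2 transcripts, and *Cox6b2* 35 counts on 6 transcripts, of which 31 fell on a single non-coding transcript. *Gapdh* had 57 counts on 2 transcripts, although it is among the most abundant transcripts of most cells. For *Gapdh*, 85.4% of the 75-base windows of its annotated transcript also occurred elsewhere in the NCBIM37 (mm9) genome. These low counts are therefore no measure of expression, and *Ldhb*, *Gapdhs*, *Cox6b2* and *Gapdh* did not pass the filter on low counts. *Ldha* passed it with 129 counts, all on 1 of its 3 listed transcripts, so its values describe only the part of the gene that belongs to that transcript alone.

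The question put to the counts was whether loss of *Morc2b* changed these genes at the age at which the study profiled the testis. No change was detected. Of the 7 genes tested, 0 had an adjusted p-value under 0.05 in the edgeR quasi-likelihood test with Benjamini-Hochberg adjustment, beside 0% of all 13507 genes tested. The same test gave 0 of 7 with an unadjusted p-value under 0.05, where 1.84% of all genes (249 genes) passed. The values of the genotypes overlapped in all 7, and were separate in 1.29% of all genes. DESeq2 called 1 gene of all those tested, *Pkmyt1*, which is not an energy isozyme, and gave 262 genes and 0 of the 7 an unadjusted p-value under 0.05. The study itself used another test, Cuffdiff, and reported differentially expressed genes in these testes, most of them lower in *Morc2b*-/-. It retested some of them by real-time PCR in independent testes. The 0% above thus describes the edgeR test alone, which did not call *Morc2b* either. The median log2 fold change was -0.52 over the 3 germ cell forms tested and 0.02 over the 4 somatic forms, with 0.0022 over all genes tested. All fold changes below are *Morc2b*-/- over wild type, and the smallest adjusted p-value of any gene was 0.99981. Throughout, fewer cells of a type and less RNA per cell cannot be told apart in whole testes.

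**Figure D1:**
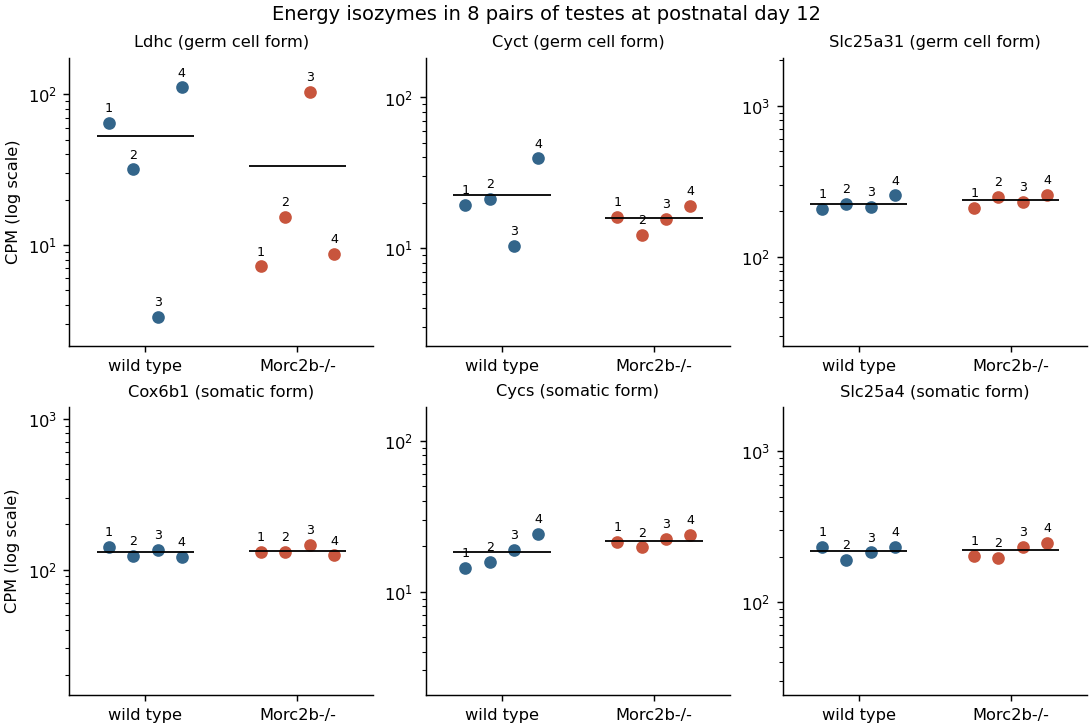
CPM (log scale) of the 6 countable isozymes in each pair of testes, with germ cell forms in the upper row and somatic forms in the lower row. Points carry the sample number of the label, horizontal lines are the mean of 4 samples, and every axis spans the same fold. *Ldhc* ranged from 3.36 to 111 CPM within wild type, whereas *Slc25a31*, *Cox6b1* and *Slc25a4* stayed within a narrow band in both genotypes.

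*Ldhc*, the lactate dehydrogenase subunit of spermatocytes and sperm, varied more between samples of the same genotype than between genotypes. It was at 64.7, 31.7, 3.36 and 111 CPM in wild type 1 to 4. In *Morc2b*-/- 1 to 4 it was at 7.21, 15.4, 103 and 8.70 CPM. Wild type 4 and *Morc2b*-/- 3 were the highest samples and wild type 3 the lowest, so the genotypes overlapped over their whole range. The raw counts behind these values ran from 94 in wild type 3 to 3603 in *Morc2b*-/- 3, and the highest and lowest CPM differed by 33.1-fold. The mean was 52.7 ± 46.3 CPM in wild type and 33.6 ± 46.5 CPM in *Morc2b*-/- (SD, n = 4 each). The fitted log2 fold change was -0.65 (SE 1.04, edgeR, unadjusted p = 0.55). The value was decided by single libraries, since it was -2.33 (SE 0.91, edgeR, unadjusted p = 0.033, adjusted p = 0.99993) without *Morc2b*-/- 3 and 0.010 (SE 1.10) without wild type 4. Without wild type 1 and *Morc2b*-/- 3 together, the libraries with the most spermatid marker RNA, it was -2.22 (SE 0.99, edgeR, unadjusted p = 0.058, adjusted p = 0.99982). *Morc2b*-/- 1 and 2, which were kept, still held 18.2 and 34.6 CPM of the spermatid markers, above every wild type sample that was kept. *Ldhc* was thus high in the samples with high spermatid markers and in the sample with the highest *Piwil1*. The source of this marker RNA and its part in the result were not tested.

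*Ldhc* occupies chr7:54116573-54133512 on the plus strand of mm9 in 8 exons, and *Ldha*, the subunit of muscle and many other tissues, lies just before it at chr7:54096845-54110997 on the same strand. None of the 75-base windows of the *Ldhc* transcript had a copy elsewhere in the genome, and none was shared with the transcripts of *Ldha* or *Ldhb*. Only exact copies were searched, so reads mapped with mismatches were not examined. The few counts of *Ldha* were 14, 14, 1 and 59 in wild type 1 to 4 and 5, 8, 24 and 4 in *Morc2b*-/- 1 to 4. The highest of each genotype was the sample in which *Ldhc* was also highest, and Pearson's r between the log2 CPM of both genes was 0.93 over the 8 samples. The log2 fold change of *Ldha* was -1.19 (SE 0.87, edgeR, unadjusted p = 0.20), and it was -0.04 without wild type 4. With 129 counts in all, these values carry a large counting error and do not stand for total *Ldha* expression.

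*Cyct*, the cytochrome c of spermatocytes and sperm, showed a smaller range. It was at 19.4, 21.2, 10.4 and 39.4 CPM in wild type 1 to 4 and at 16.1, 12.3, 15.6 and 19.1 CPM in *Morc2b*-/- 1 to 4. Wild type 4 was the highest and wild type 3 the lowest sample, and all *Morc2b*-/- values lay between them. The values in wild type 1 and *Morc2b*-/- 3, the libraries with the most spermatid marker RNA, were near those of the other samples of their genotype except wild type 3 and 4. The mean was 22.6 ± 12.2 CPM in wild type and 15.8 ± 2.81 CPM in *Morc2b*-/- (SD, n = 4 each), with a log2 fold change of -0.52 (SE 0.34, edgeR, unadjusted p = 0.16). It was -0.11 (SE 0.25) without wild type 4 and -0.76 (SE 0.26, edgeR, unadjusted p = 0.018, adjusted p = 0.99956) without wild type 3. *Piwil1* was likewise highest in wild type 4.

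*Cycs*, the cytochrome c of somatic cells, did not follow *Cyct*. It was at 14.4, 15.7, 18.8 and 24.04 CPM in wild type 1 to 4 and at 21.3, 19.6, 22.3 and 23.7 CPM in *Morc2b*-/- 1 to 4. Wild type 1, 2 and 3 lay below all *Morc2b*-/- samples and wild type 4 lay above them. The mean was 18.2 ± 4.30 CPM in wild type and 21.7 ± 1.72 CPM in *Morc2b*-/- (SD, n = 4 each), and the log2 fold change was 0.25 (SE 0.16, edgeR, unadjusted p = 0.14). It was 0.41 (SE 0.12, edgeR, unadjusted p = 0.0083, adjusted p = 0.99935) without wild type 4 and 0.15 without wild type 1. For *Cycs*, 36.2% of the 75-base windows of the transcript occurred elsewhere in the genome, and reads from such windows are missing from its counts, while none of the windows of *Cyct* had a copy.

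The balance of both cytochromes within a sample was expressed as the log2 ratio of their counts, with 2 counts added to each gene. For *Cyct* to *Cycs* it was 0.43, 0.43, -0.85 and 0.71 in wild type 1 to 4 and -0.40, -0.68, -0.51 and -0.31 in *Morc2b*-/- 1 to 4. Wild type 1, 2 and 4 lay above all *Morc2b*-/- samples and wild type 3 lay below them. The mean ratio was 0.18 ± 0.70 in wild type and -0.47 ± 0.16 in *Morc2b*-/- (SD, n = 4 each), a difference of -0.66 that was smaller than the SD of the wild type samples and ranged from -0.99985 to -0.48 when each sample was left out. These ratios compare counts, not molecules, because the transcripts differ in length and in their share of windows with copies.

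**Figure D2:**
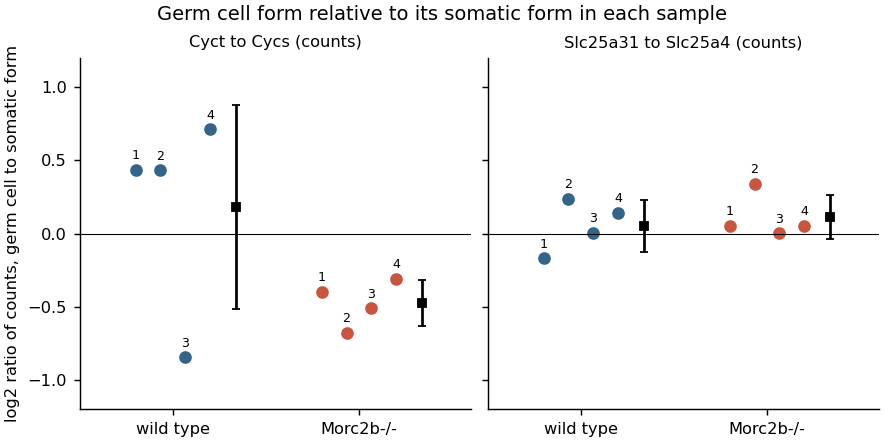
Log2 ratio of counts of germ cell form to somatic form in each sample, for *Cyct* to *Cycs* (left) and *Slc25a31* to *Slc25a4* (right). Squares with bars are the mean and SD of 4 samples. For *Cyct* to *Cycs*, wild type 3 lay at -0.85 and the other wild type samples at 0.43 to 0.71, and for the carriers both genotypes lay around 0.

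*Slc25a31*, the ADP/ATP carrier of male germ cells, was the most even of the germ cell forms. It was at 207, 225, 213 and 255 CPM in wild type 1 to 4. In *Morc2b*-/- 1 to 4 it was at 211, 248, 231 and 257 CPM. Wild type 3, the lowest sample for *Ldhc* and *Cyct*, lay within the range of the others. The mean was 225 ± 21.5 CPM in wild type and 237 ± 20.4 CPM in *Morc2b*-/- (SD, n = 4 each), and the log2 fold change was 0.07 (SE 0.08, edgeR, unadjusted p = 0.40). It stayed between 0.03 and 0.14 when each sample was left out in turn. *Slc25a31* lies at chr3:40512777-40529515 on the plus strand of mm9, and none of the windows of its transcript had a copy elsewhere.

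*Slc25a4*, the carrier of heart and muscle that somatic cells of the testis also use, was similarly even. It was at 233, 191, 213 and 232 CPM in wild type 1 to 4 and at 203, 196, 231 and 248 CPM in *Morc2b*-/- 1 to 4. The log2 fold change was 0.02 (SE 0.09, edgeR, unadjusted p = 0.86), and its sign changed with the samples left out, from -0.05 without *Morc2b*-/- 4 to 0.07 without *Morc2b*-/- 2. The log2 ratio of *Slc25a31* to *Slc25a4* counts was 0.05 ± 0.18 in wild type and 0.11 ± 0.15 in *Morc2b*-/- (SD, n = 4 each), a difference of 0.06 that lay within the spread of either genotype. Sample by sample the ratio of counts ran from 0.889 to 1.18 in wild type and from 1.00 to 1.26 in *Morc2b*-/-.

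*Cox6b1*, the somatic form of a cytochrome c oxidase subunit that faces cytochrome c, varied least. It was at 142, 124, 135 and 121 CPM in wild type 1 to 4 and at 131, 131, 145 and 124 CPM in *Morc2b*-/- 1 to 4. The genotypes overlapped over nearly their whole range, with a log2 fold change of 0.03 (SE 0.07, edgeR, unadjusted p = 0.70) that was -0.01 without wild type 4 and -0.02 without *Morc2b*-/- 3. Its germ cell counterpart *Cox6b2* could not be compared with it for the reason given above.

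**Figure D3:**
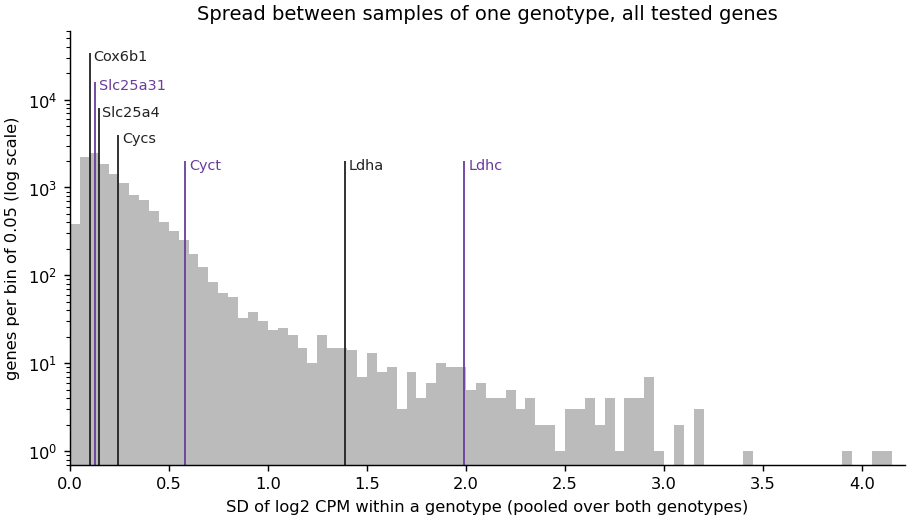
Number of tested genes (log scale) by the SD of log2 CPM among samples of the same genotype, pooled over both genotypes, for all 13507 genes tested. Vertical lines mark the tested isozymes, germ cell forms in purple and somatic forms in black, and their height carries no value. *Ldhc* at 1.99 and *Ldha* at 1.39 lie in the thin right tail, and *Cox6b1*, *Slc25a31* and *Slc25a4* lie in the bulk of genes.

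Set against all tested genes, the spread within a genotype placed *Ldhc*, *Ldha* and *Cyct* in the upper part of the distribution and the other isozymes in the bulk of it. The pooled SD of log2 CPM among samples of the same genotype was 1.99 for *Ldhc*, and 99.4% of all tested genes had a lower SD. It was 1.39 for *Ldha* (98.7% lower), a value that includes the counting error of its few counts, and 0.58 for *Cyct* (92.5% lower). *Cycs* was intermediate, with an SD of 0.25 (61.1% lower). The SD was 0.15 for *Slc25a4* (36.3% lower), 0.13 for *Slc25a31* (31.0% lower) and 0.10 for *Cox6b1* (19.9% lower). Germ cell forms thus included the most variable and the second least variable of the 7 isozymes tested. Levels of different genes can be compared only per length, as CPM per kilobase of the annotated transcript. On this scale, in wild type samples, *Cox6b1* came first at 258 ± 19.2, followed by *Slc25a31* at 138 ± 13.2 and *Slc25a4* at 113 ± 10.2, *Ldhc* at 38.5 ± 33.8, *Cyct* at 34.5 ± 18.6 and *Cycs* at 5.84 ± 1.38 (SD, n = 4). In *Morc2b*-/- samples the means were 263 ± 17.6 for *Cox6b1*, 146 ± 12.5 for *Slc25a31*, 114 ± 12.5 for *Slc25a4*, 24.5 ± 34.0 for *Ldhc*, 24.1 ± 4.30 for *Cyct* and 6.96 ± 0.55 for *Cycs*. *Ldhc* and *Cyct*, neighbours in this order, did not differ beyond their spread in either genotype. In *Morc2b*-/- the mean of *Ldhc* rested on sample 3, with a range of 5.26 to 75.3 against 18.7 to 29.2 for *Cyct*, and per kilobase of windows without a copy elsewhere *Ldhc* came below *Cyct* there, at 25.9 against 27.2. The level of *Slc25a31* per kilobase lay above that of *Slc25a4* in both genotypes without overlap, at 127 to 157 against 99.1 to 121 in wild type and 130 to 158 against 102 to 129 in *Morc2b*-/-. In CPM the genes overlapped in both genotypes, so this separation rests on the lengths used, 1625 bases for *Slc25a31* and 1925 for *Slc25a4*. These lengths come from another annotation (GENCODE) than the RefSeq transcripts that were counted. The carrier *Slc25a5* was not placed on this scale. Counted per kilobase of windows without a copy elsewhere, *Cycs* was at 9.37 ± 2.21 in wild type and 11.2 ± 0.89 in *Morc2b*-/-, still the lowest.

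The genes whose log2 CPM followed each germ cell form most closely were ranked by Pearson's r over the 8 samples among all 13507 tested genes, and all these values share the same libraries. Closest to *Ldhc* were *Gtf2a1l*, *Fabp9* and *Gk2*, each with r = 0.99. Closest to *Cyct* were *Ccdc24*, *Ccdc87* and *Kctd7*, each with r = 0.95. Closest to *Slc25a31* were *Gabpa* with r = 0.99, *Eif1b* with r = 0.985 and *Extl1* with r = 0.98. The lists had no gene in common. Among the germ cell forms themselves, r was 0.66 between *Ldhc* and *Cyct*, 0.20 between *Ldhc* and *Slc25a31* and 0.40 between *Cyct* and *Slc25a31*. Between *Morc2b* and the same forms it was 0.77 for *Ldhc*, 0.66 for *Cyct* and -0.12 for *Slc25a31*. Because *Morc2b* is deleted in the knockout samples, these values include the difference between genotypes.

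**Figure D4:**
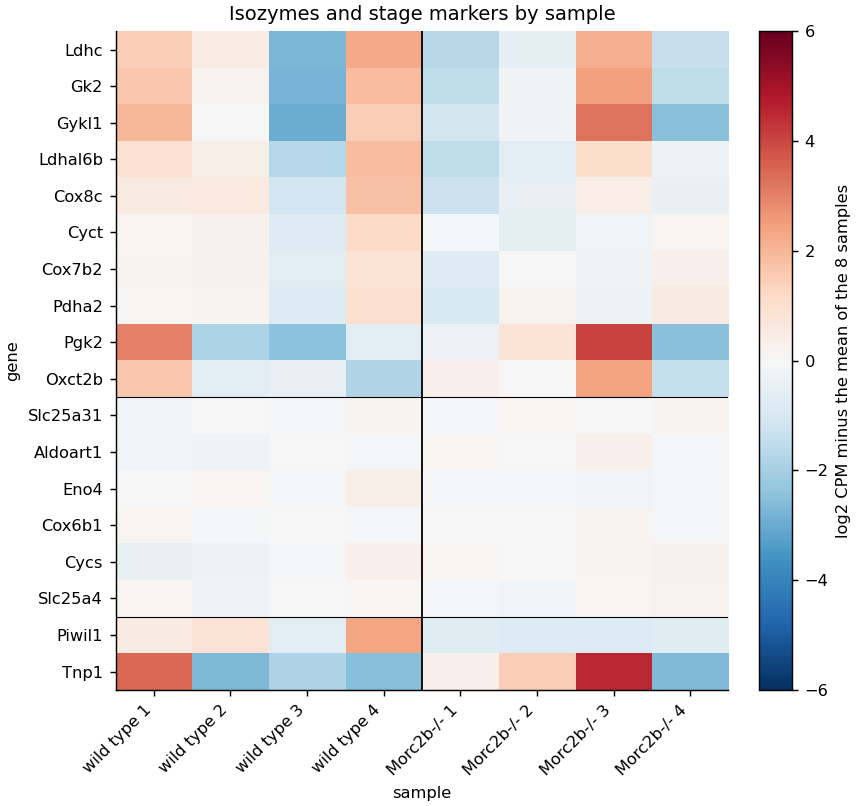
Log2 CPM minus the mean of the 8 samples (colour) for the isozymes, other testis isozymes and 2 stage markers (rows) in each sample (columns, wild type left of the vertical line). *Ldhc*, *Gk2*, *Gykl1* and *Ldhal6b* were high in wild type 1, wild type 4 and *Morc2b*-/- 3, *Cyct*, *Cox7b2* and *Pdha2* were highest in wild type 4, *Pgk2* and *Oxct2b* followed the spermatid marker *Tnp1*, and *Slc25a31*, *Aldoart1* and *Eno4* varied little.

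A list of 12 other testis forms of energy enzymes was followed. The edgeR test covered 11 of them, called 0 and left 0 below an unadjusted p-value of 0.05, with 6 log2 fold changes below 0 and 5 above. Their median log2 fold change was -0.18, beside 0.0022 over all genes tested. Some of them were high in the same samples as a germ cell isozyme and others were not. High in wild type 1, wild type 4 and *Morc2b*-/- 3, as *Ldhc* was, were *Gk2* (9.29, 3.52, 0.393 and 11.0 CPM in wild type 1 to 4 and 1.00, 2.51, 16.8 and 1.03 CPM in *Morc2b*-/- 1 to 4), a glycerol kinase of spermatids, together with its relative *Gykl1* and the lactate dehydrogenase-like gene *Ldhal6b*. The log2 fold changes were -0.18 (SE 1.05) for *Gk2*, 0.48 (SE 1.24) for *Gykl1* and -0.88 (SE 0.71) for *Ldhal6b*. These values depended on single libraries. That of *Gk2* was -1.99 without *Morc2b*-/- 3 and 0.27 without wild type 4, that of *Gykl1* was -2.06 without *Morc2b*-/- 3 and 1.09 without wild type 1, and that of *Ldhal6b* was -1.58 without *Morc2b*-/- 3 and -0.25 without wild type 4.

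*Cox8c*, *Cox7b2* and *Pdha2* were highest in wild type 4, as *Cyct*, *Ldhc* and *Ldhal6b* were. Over the samples, *Cox8c* followed *Ldhal6b* (r = 0.97) and *Ldhc* (r = 0.90) more closely than *Cyct* (r = 0.83). *Cox7b2* and *Pdha2* followed *Cyct* (r = 0.80 and 0.75) more closely than *Ldhc* (r = 0.61 and 0.55). *Cox8c*, a testis form of a small cytochrome c oxidase subunit, was at 14.4, 14.8, 4.36 and 33.4 CPM in wild type 1 to 4 and at 4.01, 7.004, 13.0 and 7.22 CPM in *Morc2b*-/- 1 to 4. Its log2 fold change was -1.10 (SE 0.55, edgeR, unadjusted p = 0.074), the lowest of the list. It was -0.52 without wild type 4, -1.42 (edgeR, unadjusted p = 0.0097, adjusted p = 0.99956) without wild type 3 and -1.46 (edgeR, unadjusted p = 0.036, adjusted p = 0.99993) without *Morc2b*-/- 3. *Cox7b2*, another oxidase subunit, had a log2 fold change of -0.35 (SE 0.30), and *Pdha2*, the testis form of the pyruvate dehydrogenase alpha subunit, of -0.27 (SE 0.39). Without wild type 4 these were -0.09 for *Cox7b2* and 0.09 for *Pdha2*, and at the other end of the range they were -0.55 without wild type 3 and -0.51 without *Morc2b*-/- 4. Wild type 3 and *Morc2b*-/- 1 were the lowest samples for all 3 genes.

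*Pgk2*, the phosphoglycerate kinase of late spermatocytes and spermatids, was at 10.6, 0.293, 0.179 and 0.754 CPM in wild type 1 to 4 and at 0.970, 2.30, 22.3 and 0.172 CPM in *Morc2b*-/- 1 to 4. It was high in wild type 1 and *Morc2b*-/- 3, the libraries with the most spermatid marker RNA, and not in wild type 4. Its log2 fold change was 1.11 (SE 1.47), but -1.36 without *Morc2b*-/- 3 and 3.94 without wild type 1. *Oxct2b*, a ketone body transferase of spermatids, was highest in the same libraries at 1.28 and 2.26 CPM and had a log2 fold change of 0.79 (SE 0.97), which was -0.52 without *Morc2b*-/- 3 and 2.20 without wild type 1. *Oxct2a* peaked there too, at 1.31 and 1.78 CPM, and did not pass the filter on low counts.

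*Aldoart1* and *Aldoart2*, retrogenes of aldolase A, and *Eno4*, an enolase of sperm, varied less between samples. *Aldoart1* ranged from 22.1 to 31.6 CPM over all samples, *Aldoart2* from 9.40 to 19.8 CPM and *Eno4* from 9.88 to 13.8 CPM. The log2 fold changes were 0.20 (SE 0.10, edgeR, unadjusted p = 0.087) for *Aldoart1*, 0.19 (SE 0.22) for *Aldoart2* and -0.19 (SE 0.11, edgeR, unadjusted p = 0.11) for *Eno4*.

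**Figure D5:**
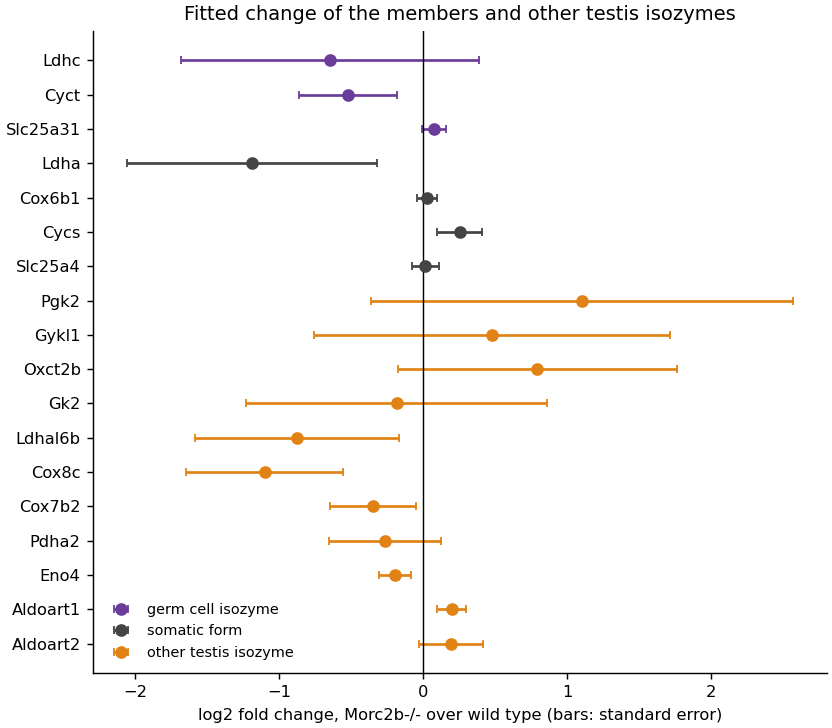
Fitted log2 fold change of *Morc2b*-/- over wild type (points) with its standard error (bars) for the tested isozymes and the tested genes of the list of other testis isozymes, coloured by kind. The genes with wide bars, such as *Ldhc* (SE 1.04) and *Pgk2* (SE 1.47), are those that varied most within a genotype, and *Slc25a31* (SE 0.08) and *Cox6b1* (SE 0.07) lie near 0 with narrow bars.

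None of the remaining genes of the pathways, most of them used in many tissues, passed the adjusted threshold. Of 21 genes of glycolysis, 14 were tested and 0 were called, and 1 had an unadjusted p-value under 0.05, beside 1.84% of all genes. This was the muscle enolase *Eno3*, at 0.714 to 2.20 CPM in wild type and 0.315 to 0.756 CPM in *Morc2b*-/-, with a log2 fold change of -1.13 (SE 0.39, edgeR, unadjusted p = 0.018, adjusted p = 0.99981). It is listed with 3 transcripts and had 246 counts in all, so these values, like those of *Ldha*, are no measure of the whole gene. The next smallest p-value was that of *Pgam1*, with 0.13 (SE 0.09). Of 11 genes of glucose, lactate and pyruvate transport, 9 were tested and 0 were called. The neuronal and germ cell glucose transporter *Slc2a3* was at 64.8, 73.7, 57.5 and 160 CPM in wild type 1 to 4 and between 52.0 and 65.7 CPM in *Morc2b*-/-, with a log2 fold change of -0.64 (SE 0.30, edgeR, unadjusted p = 0.058) that was -0.20 without wild type 4 and -0.80 without wild type 3. The widespread transporter *Slc2a1* had 0.14 (SE 0.07).

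Among 14 other nuclear subunits of cytochrome c oxidase, 10 were tested and 0 were called, with log2 fold changes from -0.10 to 0.14 and a median of 0.04. Those with the smallest p-values were *Cox8a* at 0.13 (SE 0.09) and *Cox7a1* at 0.14 (SE 0.11). All 5 subunits of the somatic pyruvate dehydrogenase complex were tested, and 0 were called, with *Dld* at 0.06 (SE 0.08) and *Dlat* at -0.07 (SE 0.09). Of 8 genes of adenine nucleotide exchange and ATP synthesis, 7 were tested and 0 were called. The ATP synthase gamma subunit gene *Atp5c1* was the only gene of this list whose genotypes did not overlap, 1 of 7 beside 1.29% of all genes, at 1.19 to 1.504 CPM in wild type and 0.928 to 1.16 CPM in *Morc2b*-/- (log2 fold change -0.32, SE 0.18, edgeR, unadjusted p = 0.10), and its 297 counts on 2 listed transcripts stand for part of the gene only. The other somatic ADP/ATP carrier *Slc25a5*, at 178 to 226 CPM over all samples and not used in the ratios, had 0.08 (SE 0.08). Of 6 genes of cytochrome c maturation and its partners, 4 were tested and 0 were called, with *Uqcrfs1* at 0.04 (SE 0.07) and *Cyc1* at -0.01 (SE 0.06). The signs of *Dlat*, *Uqcrfs1* and *Cyc1* changed when single samples were left out. In these 5 lists other than glycolysis, 0 genes reached an unadjusted p-value of 0.05.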

How the data were processed

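Pairs of testes (4 wild type, 4 *Morc2b*-/-) were profiled on the Illumina platform after stranded mRNA library preparation. The authors trimmed reads, mapped them with Tophat to the NCBI37/mm9 genome, and what they deposited are unnormalized counts for each RefSeq transcript in each sample; the counting program and its strand setting are not given in the sources used here. Reads on more than 1 transcript (26.8% to 28.8% of uniquely mapped reads) are tallied apart, and were left out of library sizes. Of 35819 transcripts, 35522 matched a symbol, and counts were summed to 24651 genes, 6070 of them with several transcripts. Genotypes were compared with edgeR 4.0.16 (R 4.3.3): TMM, filterByExpr, glmQLFit and glmQLFTest, genotype as the only term, Benjamini-Hochberg adjustment over all 13507 genes tested, threshold 0.05. The SE is the log2 fold change divided by the square root of F. Log2 CPM used a prior count of 2. In a test on simulated data for this comparison (13323 genes), 189 genes were called, 179 of them among the 191 changed. The changed genes were given a log2 change of 2 up or down, and each gene was drawn independently. Differences between libraries that many genes share were not simulated, so this test does not measure the power of the real comparison. Samples differed by more than counting error (chi-square per degree of freedom at least 6.86). Depth was 27144796 to 36941755 counts per sample. Lengths and windows of 75 bases were those of the longest coding GENCODE transcript, the windows were matched to NCBIM37, and promoters are from RefSeq. Alternatives were RLE normalization, DESeq2 1.42.0, other filters, a replicate block, transcripts as units and leaving out samples. The genes named are the isozymes, *Gapdh*, *Morc2b*, all other testis isozymes, the genes of smallest p in each other list, the closest patterns, and markers. *Piwil1* and the groups by pattern were chosen after values were seen, as was *Pkmyt1*. The isozymes and lists were chosen with earlier results of these data known.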

Additional observations from a re-analysis of the deposited data

Results flagged for a closer look

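In 3 of the 16 groups of 4 samples examined for a sample far from the others, *Morc2b*-/- 3 stood above the remaining knockout samples. Its *Ldhc* level was 103 CPM, with a gap to the next sample of 0.915 of the range of the genotype, its *Ldha* level was 0.688 CPM (0.857 of the range), and its *Morc2b* level was 3.29 CPM (0.921 of the range), each above Dixon's 95% critical value for 4 samples. For normally distributed values, chance alone flags about 1 group in 20. The values here were CPM, which spanned 14.3-fold for *Ldhc* and 47.9-fold for *Morc2b* among the *Morc2b*-/- samples, so this rate need not hold. *Ldhc*, *Ldha* and *Morc2b* come from the same library and are not independent. The same library held the most spermatid marker RNA, although the study places the first spermatids at a later age. The source of this RNA and its part in these values were not tested.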

How the results depend on the processing

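Over all genes the edgeR test called 0 under RLE normalization, without a filter on low counts, with at least 10 counts in every sample, with transcripts as units, with the replicate block and without each sample, and 0 isozymes were called under any alternative, DESeq2 included. DESeq2 called 1 gene, *Pkmyt1*. Unadjusted p-values under 0.05 were given to 249 genes with all samples and 572 with the replicate block, and 204 to 504 when each sample was left out. Same-numbered samples of both genotypes did not deviate together (mean r 0.055, from -0.32 to 0.45, against -0.016 over 12 pairs with different numbers), so the numbers were not taken as pairs. With the replicate block the log2 fold change of *Ldhc* was -1.43 (SE 1.53), of *Cyct* -0.39 (SE 0.26), of *Cycs* 0.28 (SE 0.11, edgeR, unadjusted p = 0.040, adjusted p = 0.985) and of *Slc25a31* 0.07 (SE 0.04).

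No change was called, and the fold changes of *Ldhc*, *Cox6b1* and *Slc25a4* changed sign when single samples were left out. With all samples that of *Ldhc* was -0.65 and the other values were near 0. The fold change of *Slc25a31* was also near 0 and kept its sign. The log2 fold change was 0.010 for *Ldhc* and -0.01 for *Cox6b1* without wild type 4, -0.018 for *Cox6b1* and -0.01 for *Slc25a4* without *Morc2b*-/- 3, and -0.04 and -0.048 for *Slc25a4* without wild type 2 and *Morc2b*-/- 4. The cause was not tested. Leaving out each sample gave ranges of -2.33 to 0.010 for *Ldhc*, -0.76 to -0.11 for *Cyct*, 0.03 to 0.14 for *Slc25a31*, -0.018 to 0.071 for *Cox6b1*, 0.15 to 0.41 for *Cycs*, -0.048 to 0.067 for *Slc25a4*, -1.99 to -0.04 for *Ldha* and -6.23 to -3.26 for *Morc2b*. The difference in the *Slc25a31* to *Slc25a4* ratio changed sign as well, to -0.015 without wild type 1 and -0.016 without *Morc2b*-/- 2. Of the other testis isozymes, *Gk2*, *Gykl1*, *Pgk2*, *Oxct2b* and *Pdha2* changed sign without single samples. Leaving out wild type 1 and *Morc2b*-/- 3 together, which was added after seeing the data, called 0 genes. Ratios were not formed for *Ldhc* to *Ldha*, *Gapdhs* to *Gapdh* and *Cox6b2* to *Cox6b1*. In each pair at least 1 form had few counts on several listed transcripts. How many reads of each gene were set aside in counting is not known, so few counts and low expression cannot be told apart there. The standard errors of 1.04 for *Ldhc* and 0.34 for *Cyct* leave even large changes undetected with 4 samples a genotype.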
